A study of Mus musculus with 6 samples.

Results

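The accessible regions around 9 genes of the ETS family of transcription factors were described in mouse Th9, Th2 and Th17 cells. The genes were Spi1, which encodes PU.1, Spib, Ets1, Ets2, Fli1, Etv5, Etv6, Elf1 and Gabpa. They were chosen by name, and every ATAC-seq peak between 50 kb upstream and 50 kb downstream of each annotated gene was kept. Overlapping or adjoining peaks from the 6 libraries were merged, and 212 of the 236017 merged regions lay in these windows. Ets1 and Fli1 are neighbours on chromosome 9, and 3 regions lay in the windows of both.

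ATAC-seq, a Tn5 transposase assay of open DNA, was run on wild-type T helper cells, with 2 libraries for each subset, labelled replicates 1 and 3. Naive CD4+CD62L+ cells of C57BL6/J mice, from the spleen by the labels and from spleen and lymph nodes by the methods, were stimulated through CD3 and CD28 and collected after culture, dead cells having been removed. Th9 cultures received IL-4, IL-2, TGF-β1 and anti-IFNγ, Th2 cultures received IL-4, IL-2 and anti-IFNγ, and Th17 cultures received IL-6, TGF-β1, IL-23, IL-1β and antibodies to IFNγ, IL-4 and IL-2. Th9 thus shared IL-4 and IL-2 with Th2 and TGF-β1 with Th17. The methods give young adult mice of both sexes for the study as a whole. The sources used here do not give the age or sex behind a library or say whether the replicates came from separate mice, so the p-values measure the spread between these libraries, which may be technical.

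ETS factors share a DNA-binding domain that recognizes a GGAA core, and most members prefer a site of the form CCGGAAGT, whereas PU.1 and Spi-B favor a purine-rich site such as GAGGAAGT. Ets1, Fli1, Elf1 and Gabpa act widely in T cells, Etv6 is mostly a repressor, and PU.1 and Spi-B are best known from myeloid cells and B cells. In T helper cells PU.1 is a known promoter of IL-9 production in the Th9 subset, and Etv5 is known to act at the cytokine genes of Th9 and Th17 cells. An open region marks DNA that factors can reach. It measures neither the RNA nor the protein of the gene beside it.

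The sequences at the regions on which the results turned are given first. Each is the 200 bases of the plus strand of GRCm38, the assembly of mm10, centred on the part shared by the peaks of the libraries that called the region, and capitals mark a match to 1 of 4 words defined with the sequence counts. Regions are named by their gene and by their distance in kb from its first protein-coding start, negative upstream. The first 3 regions differed between Th9 and Th2.

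Gabpa -44.0 kb, chr16:84790752-84790951: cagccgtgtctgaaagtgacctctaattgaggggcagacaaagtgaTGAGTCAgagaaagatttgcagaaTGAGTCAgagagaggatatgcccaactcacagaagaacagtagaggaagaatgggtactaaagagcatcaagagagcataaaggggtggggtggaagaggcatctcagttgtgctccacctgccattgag
Gabpa +29.9 kb, chr16:84864831-84865030: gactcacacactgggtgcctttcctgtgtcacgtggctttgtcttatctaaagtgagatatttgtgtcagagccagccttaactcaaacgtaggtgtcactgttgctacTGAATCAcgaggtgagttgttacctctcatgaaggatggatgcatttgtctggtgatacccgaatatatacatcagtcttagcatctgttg
Etv6 +189.9 kb, chr6:134225443-134225642: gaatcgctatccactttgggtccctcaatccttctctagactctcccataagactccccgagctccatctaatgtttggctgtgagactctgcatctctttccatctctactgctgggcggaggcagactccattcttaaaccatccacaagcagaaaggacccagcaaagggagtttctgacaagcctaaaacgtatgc

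The next region had its lowest enrichment in Th9, and the one after it its highest in Th17.

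Elf1 +81.8 kb, chr14:79562893-79563092: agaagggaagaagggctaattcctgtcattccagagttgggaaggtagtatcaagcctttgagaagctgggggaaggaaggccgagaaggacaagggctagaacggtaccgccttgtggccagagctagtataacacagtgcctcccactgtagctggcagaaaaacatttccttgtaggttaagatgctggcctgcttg
Etv5 -26.9 kb, chr16:22466511-22466710: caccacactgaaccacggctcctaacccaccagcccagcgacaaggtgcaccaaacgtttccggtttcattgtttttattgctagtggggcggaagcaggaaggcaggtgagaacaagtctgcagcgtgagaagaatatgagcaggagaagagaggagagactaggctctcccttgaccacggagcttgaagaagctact

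These 4 regions were called in both libraries of some subsets and in no others.

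Etv5 +7.7 kb, chr16:22431961-22432160: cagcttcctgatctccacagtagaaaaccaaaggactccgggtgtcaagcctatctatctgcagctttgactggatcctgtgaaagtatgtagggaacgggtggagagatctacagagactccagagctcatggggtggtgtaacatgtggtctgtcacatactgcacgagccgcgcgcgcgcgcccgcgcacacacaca
Fli1 -7.9 kb, chr9:32549407-32549606: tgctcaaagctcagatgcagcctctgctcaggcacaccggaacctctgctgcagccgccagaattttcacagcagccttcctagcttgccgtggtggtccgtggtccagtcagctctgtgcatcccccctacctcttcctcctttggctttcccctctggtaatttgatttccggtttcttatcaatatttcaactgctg
Etv6 +182.6 kb, chr6:134218126-134218325: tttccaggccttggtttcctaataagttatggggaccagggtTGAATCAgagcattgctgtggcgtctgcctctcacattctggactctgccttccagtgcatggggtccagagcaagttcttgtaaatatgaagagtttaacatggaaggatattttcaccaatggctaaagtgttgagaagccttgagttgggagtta
Ets1 -79.9 kb, chr9:32616044-32616243: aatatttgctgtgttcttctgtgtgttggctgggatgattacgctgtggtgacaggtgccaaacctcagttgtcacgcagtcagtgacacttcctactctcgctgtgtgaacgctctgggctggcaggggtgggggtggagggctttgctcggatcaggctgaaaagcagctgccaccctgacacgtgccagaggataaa

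The peak lists held between 100317 and 142213 peaks and no read counts. The background recovered from them was 5.65 fragments per position in Th9 replicate 1 and between 11.2 and 17.7 in the other libraries, so the weakest fold enrichment that could be listed was highest in Th9 replicate 1, at 2.11, and was at most 1.83 elsewhere. The absence of a peak therefore says that no peak was listed at that depth. To set libraries beside each other, the fold enrichment of the strongest peak in a region was ranked within its own list, from 0 for the weakest peak to 100 for the strongest, and this rank is called the fold percentile. Promoters of the T cell markers Cd3e, Cd3d, Cd3g, Cd2, Cd5, Lck and Zap70 were called in all 6 libraries and that of Cd4 in 4.

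The windows of the 9 genes held 150 and 158 peaks in the Th9 libraries, 141 and 161 in the Th2 libraries and 149 and 121 in the Th17 libraries, replicate 1 first. Th2 overlapped both other subsets in peak number. Covered length was 127 ± 21.4 kb in Th9, 177 ± 28.0 kb in Th2 and 111 ± 0.177 kb in Th17 (SD, n = 2 each), and both Th2 libraries, at 157 and 197 kb, covered more of the windows than any other library, of which the highest was Th9 replicate 3 at 142 kb. The same was true of the whole lists, where the Th2 libraries covered 118 and 108 Mb and the others 80.7 to 102 Mb, and the cause was not tested.

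All 6 libraries called 81 of the 212 regions (38.2%), against 21.4% of all regions in the genome. Another 54 (25.5%) were called in 1 library, against 37.2% in the genome. Both libraries of Th9 and no other called 3 regions (1.42%, background 1.31%), those of Th2 called 4 (1.89%, background 2.87%) and those of Th17 called 5 (2.36%, background 1.70%). For pairs of subsets, Th9 and Th2 together held 5 regions (2.36%, background 2.0%), Th2 and Th17 held 2 (0.943%, background 1.55%), and Th9 and Th17 held 0, against a background of 0.296%. The shares of subset-restricted regions were thus near those of the genome.

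**Figure D1:**
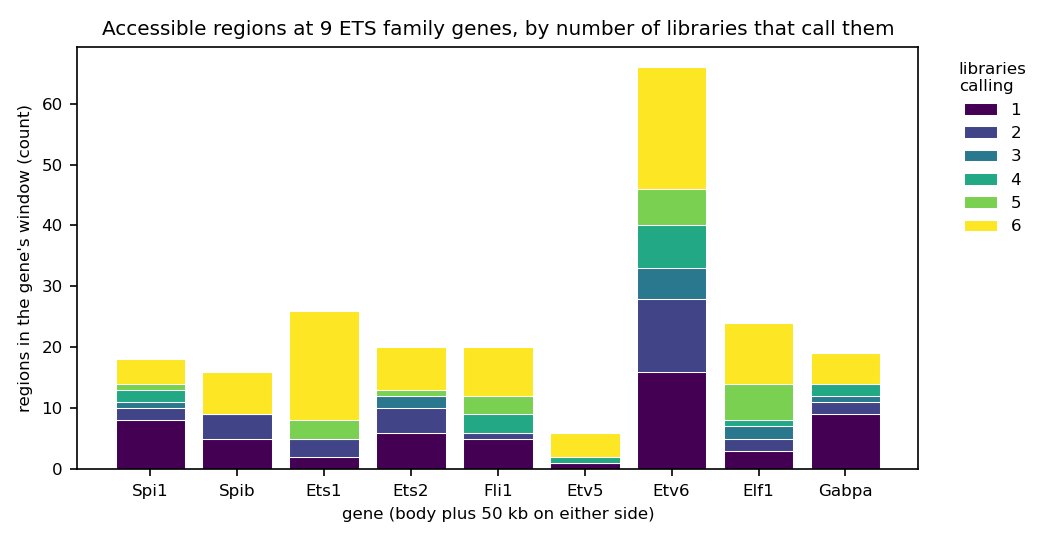
Number of regions in the window of each gene (vertical axis, count), stacked by the number of libraries that called them. Etv6 had 66 regions, 20 of them called in all 6 libraries, and Etv5 had 6, with 4 called in all 6.

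The genes differed in how much of their accessible DNA was common to the subsets. Ets1 had 18 of its 26 regions called in all 6 libraries and 2 in a single library. Spi1 had 4 of 18 in all 6 and 8 in a single library, and Gabpa had 5 of 19 and 9. Etv6, the longest gene of the list, had 66 regions, of which 16 were called in 1 library. The windows differed in length, from 106079 bp for Spib to 334459 bp for Etv6, and Etv5 had 6 regions in 158411 bp.

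Every region over a start of a member was called by all 6 libraries (8 of 8), as were 10 of 12 regions over the start of another gene. Among regions inside a member's body that touched no exon, 31 of 100 were called in all 6, and 23 of 59 intergenic regions were. The promoter was the stretch from 1000 bp before an annotated protein-coding start to 100 bp past it. There 7 of the 9 genes had a peak in all 6 libraries, against 58.7% of 21864 protein-coding genes. The fold percentile at these promoters was between 89.5 and 99.8, apart from Fli1, where it was between 72.2 and 75.5. Gabpa, which encodes the DNA-binding subunit of GA-binding protein, had the highest, at 99.5 to 99.8 in every library, in a region shared with the start of Atp5j. The Elf1 start was likewise shared with the start of Wbp4. Reads at these starts cannot be assigned to either gene.

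Among the 17 other ETS genes, the promoter was called in all 6 libraries for 10 (Elf2, Elf3, Elf4, Elk1, Elk3, Elk4, Erf, Etv1, Etv3 and Etv4), in some libraries for 2 (Elf5 and Erg) and in none for 5 (Ehf, Etv2, Fev, Spdef and Spic). The ternary complex factor Elk4 had fold percentiles between 93.8 and 99.5, close to those of Ets2 and Etv6. Elf3, best known from epithelia, ranged from 39.2 in Th17 replicate 3 to 75.8 in Th9 replicate 1. When the promoter was widened to 2000 bp each way, 12 of these 17 genes and still 7 of the 9 members were called in all 6 libraries.

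Spi1 and Spib were the members without a common promoter peak. Spi1 (chr2:91082390-91115756, plus strand) has 1 annotated protein-coding start, at 91096096. No library had a peak at the promoter of that start, also with 2000 bp on either side. The 5′ end of the annotated gene lies upstream of it, and all 6 libraries called a region close to that end, Spi1 -12.9 kb. For Spib (chr7:44525993-44532071, minus strand), Th9 replicate 3 alone had a promoter peak, at a fold percentile of 12.1. Among markers of B cells, which use both factors, the promoter of Cd79b had weak peaks in both Th9 libraries alone, at 7.60 and 12.9. The 5 markers Ms4a1, Cd79a, Pax5, Blk and Cd22 were called in no library, and Ebf1 was called in all 6, at 90.5 to 95.9. Of the 8 myeloid markers 6 (Csf1r, Lyz2, Itgam, Csf3r, Mpo and Cebpe) were called in none, Cebpa in all 6 and Cd14 in both Th2 libraries and Th17 replicate 3. With 2000 bp on either side, Cebpe and Cd14 were called in all 6 libraries as well, and the B cell markers kept their numbers of calling libraries. The part of other cells in the weak Spib and Cd79b peaks was not tested. In a bulk sample a few cells with an open site and a small opening in all cells cannot be told apart.

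The windows of both genes were nevertheless open at neighbouring starts. In the Spi1 window the highest peak was at the start of Slc39a13, Spi1 -25.7 kb, with fold percentiles of 98.4 and 98.0 for Th9, 98.4 and 97.8 for Th2, and 98.0 and 97.8 for Th17. In the Spib window it was at the starts of Emc10 and Fam71e1, Spib +35.6 kb, at 99.4 to 99.7 in all 6 libraries. These regions belong by position to other genes, and the 6 libraries differed by less than 1 point in each.

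Inside Spi1, 3 regions stood out by the number of libraries that called them, and they were chosen for description after their values were seen. Spi1 -12.9 kb (chr2:91082715-91083629) lies close to the 5′ end of the annotated gene, upstream of its first protein-coding start. It had fold percentiles of 69.6 and 66.8 for Th9, 77.1 and 81.0 for Th2, and 74.6 and 79.2 for Th17. Both Th9 values were the lowest, but the fitted difference was -0.29 ± 0.20 (log2 fold enrichment, SE) from either other subset, with limma adjusted p of 0.495 against Th2 and 0.499 against Th17. Spi1 +5.5 kb, in an intron, was called at 77.7 and 63.7 for Th9, 73.0 and 69.1 for Th2, and 73.4 for Th17 replicate 1, with no peak in Th17 replicate 3.

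The region Spi1 +16.7 kb (chr2:91111872-91113734), which holds a coding exon, had the largest contrast of width and was chosen after its values were seen. Its peaks were 1818 and 1855 bp wide in the Th9 libraries, with fold percentiles of 77.3 and 79.8. Th2 replicate 1 and Th17 replicate 1 had narrow peaks of 243 and 202 bp, at 46.2 and 54.2, and the replicate 3 libraries of Th2 and Th17 had none. Both Th9 libraries thus lay above all others in width and in percentile. The region was not tested, since it lacked a peak in 2 libraries. The part common to the 4 libraries was masked as repetitive in the assembly over its whole central stretch. In the genome 17.2% of regions had at least 90% of their central 200 bases masked, and in the ETS windows 13 regions (6.13%) did. The authors excluded reads of low mapping quality, and whether the remaining reads were placed correctly there was not tested.

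A further 5 regions of the Spi1 window were called by Th9 replicate 3 and no other library, and this library held 16 of the 54 single-library regions of all 9 windows, next to 18 in Th2 replicate 3 and 10 in Th9 replicate 1. The genome had another order, with 30.2% of its single-library regions in Th9 replicate 1, 12.9% in Th2 replicate 3 and 11.6% in Th9 replicate 3. Such regions had no second library to support them. Within Spib, the region +4.1 kb from its start, over an exon and also chosen after its values were seen, was called in all 6 libraries, with fold percentiles of 78.1 and 61.1 for Th9, 75.7 and 70.9 for Th2, and 74.4 and 66.9 for Th17. The subsets overlapped there, and the log2 differences were -0.03, -0.02 and 0.01 in the 3 contrasts. No region of either gene passed the test in any contrast (0 of 4 at Spi1 and 0 of 7 at Spib).

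**Figure D2:**
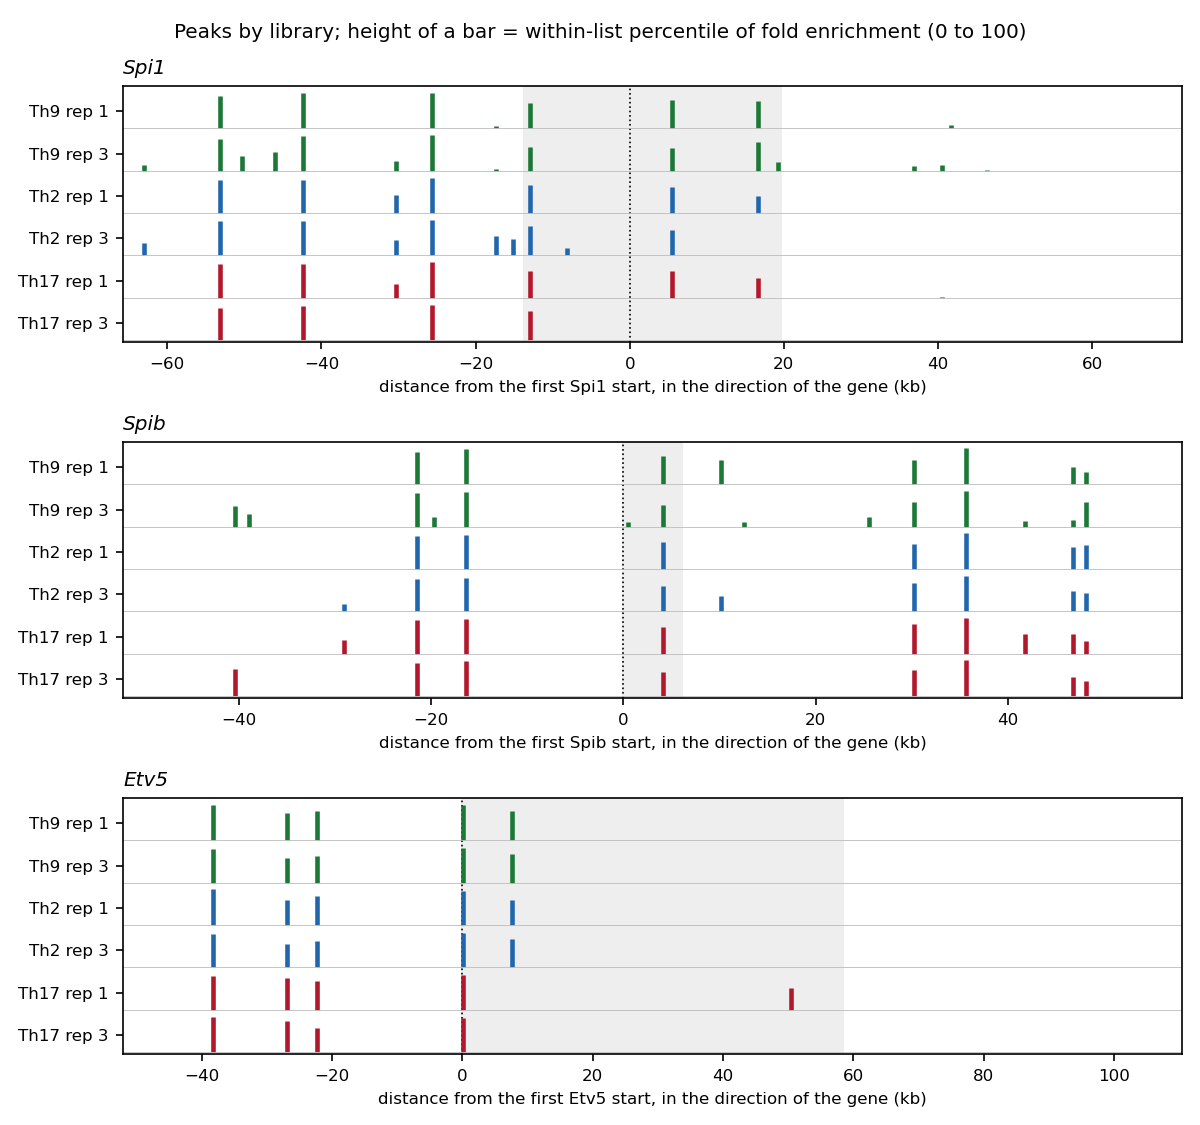
Peaks of each library around Spi1, Spib and Etv5, by distance from the first protein-coding start (kb, horizontal axis, gene direction to the right), the gene shaded and the start dotted. The height of a bar is the fold percentile, and the map has a bar at the dotted start in all 6 libraries for Etv5 and in none for Spi1.

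Etv5 (chr16:22381309-22439719, minus strand) had the fewest regions, 6, and 2 of them separated the subsets in opposite directions. At Etv5 +7.7 kb (chr16:22431849-22432249), in an intron, both Th9 libraries (81.7 and 79.1) and both Th2 libraries (69.5 and 79.4) had a peak and neither Th17 library did. This pattern of calls is given without a test, as are those of the other regions that some subsets lacked. At Etv5 -26.9 kb (chr16:22466431-22466825), upstream of the gene, Th17 was higher, with fold percentiles of 87.6 and 87.0 against 77.0 and 68.9 in Th9 and 70.7 and 64.0 in Th2. Th17 did not overlap the other subsets, while Th9 and Th2 overlapped each other. The Th17 peaks, at 371 and 395 bp, were wider than the others, at 228 to 293 bp. The fitted difference was -0.84 ± 0.19 for Th2 minus Th17 (adjusted p = 0.00973) and -0.66 ± 0.19 for Th9 minus Th17 (adjusted p = 0.0463). Leaving out Th17 replicate 3 gave adjusted p of 0.126 and 0.298, leaving out Th17 replicate 1 gave 0.0543 and 0.157, and the second call was also lost without Th9 replicate 1 (0.147) or Th9 replicate 3 (0.119). The Etv5 start itself, at 98.1 and 96.4 for Th9, 95.3 and 94.9 for Th2, and 96.9 and 95.7 for Th17, passed the test in no contrast.

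Differences in enrichment were then tested in the 81 regions called by every library. The log2 fold enrichment was quantile-normalized and fitted with limma over all 50493 such regions of the genome, with p-values adjusted over all of them by the Benjamini-Hochberg method. The 3 contrasts share libraries, so their results are not independent. Between Th9 and Th2, 5 of the 81 regions passed 0.05, all 5 higher in Th2, against 3.19% of the genome (1.01% higher in Th9 and 2.18% higher in Th2). Between Th9 and Th17, 13 passed, 7 higher in Th9 and 6 higher in Th17, against 6.01% (3.11% and 2.90%). Between Th2 and Th17, 12 passed, 9 higher in Th2 and 3 higher in Th17, against 7.44% (5.04% and 2.40%). The shares in the windows were 6.17%, 16.0% and 14.8%. The split of calls between Th9 and Th2 depends on the scaling, as 31.7% of the genome's calls were higher in Th9 with quantile normalization and 52.1% with each library centred on its median. In the windows that centring left 4 calls, again all higher in Th2.

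The median log2 difference over the 81 regions was -0.05 for Th9 minus Th2, -0.02 for Th9 minus Th17 and 0.04 for Th2 minus Th17, next to 0.02, -0.0012 and -0.03 over all regions tested. The median size of a difference, sign aside, was 0.20, 0.24 and 0.24 in the windows and 0.17 in each contrast over all regions. Single regions moved in both directions.

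In all, 18 of the 81 regions passed in at least 1 contrast, and 12 of them in a pair of contrasts. These were 22.2% and 14.8%, against 11.6% of all regions tested for any contrast and 4.91% for at least 2. By gene these were 8 of 20 at Etv6, 3 of 16 at Ets1, 2 of 7 at Ets2, 2 of 10 at Elf1, 2 of 5 at Gabpa, 1 of 4 at Etv5 and 0 at Spi1, Spib and Fli1. A region in the windows of both Ets1 and Fli1 was counted here with the gene of the nearer first start. Ets1 therefore has 16 regions here, against 18 called in all 6 libraries in its window. None was at a start, of a member (0 of 8) or of another gene (0 of 10), where 5.59% of the genome's regions over a start passed. Away from starts 18 of 63 passed (28.6%), against 13.8% of the genome's. They lay in introns (8 of 31), exons (2 of 5), intergenic DNA (7 of 23) and the body of another gene (1 of 4). On simulated libraries of the same size and spread, 64 of 100 differences of 0.75 and 100 of 100 differences of 1.5 between Th9 and Th2 were recovered, so smaller differences could be missed. The simulation changed only 100 regions at each size, in Th9 alone, while 1611 regions of the genome passed between Th9 and Th2. Its rates therefore need not hold for the data themselves.

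**Figure D3:**
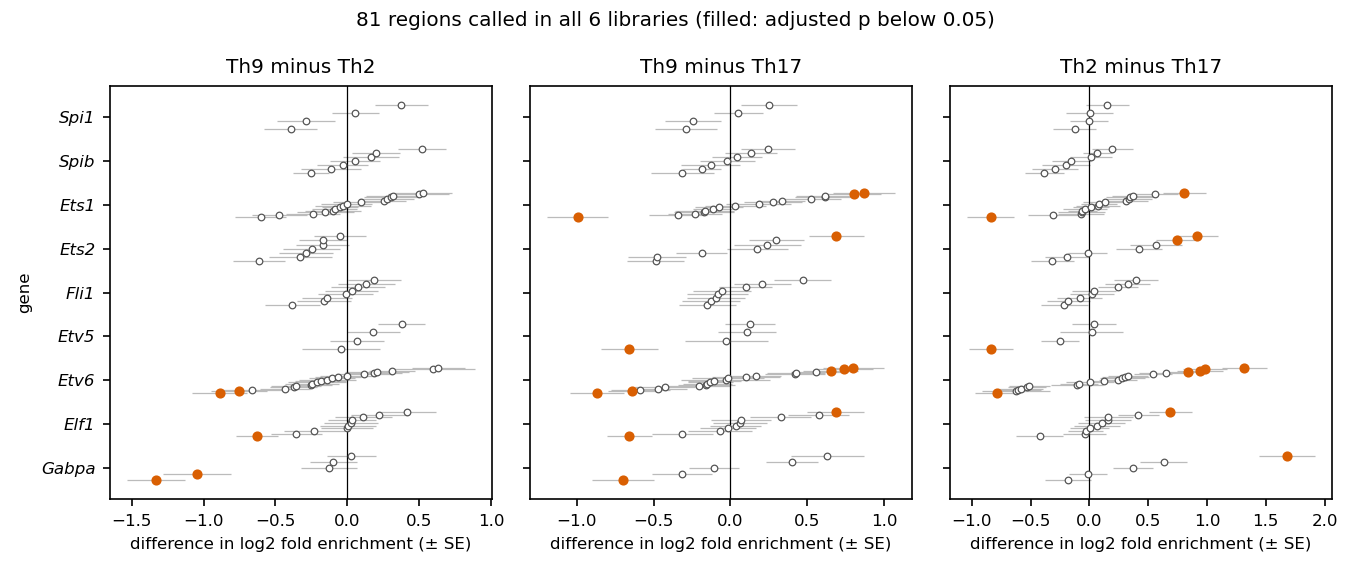
Difference in log2 fold enrichment (horizontal axis, bars ± SE) of the 81 regions called in all 6 libraries, by gene, for the 3 contrasts. Filled points passed an adjusted p of 0.05, and the Th9 minus Th2 panel has its 5 filled points to the left of 0.

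These calls rested on 2 libraries a subset and many were not stable. Leaving out a library leaves 1 in its subset, so a call can be lost with or without a shift in the difference. For Th9 minus Th17, Ets2 +40.1 kb had 0.69 with all libraries, 0.66 without Th17 replicate 1 and 0.71 without Th17 replicate 3. At Etv6 +246.0 kb these values were 0.80, 1.10 and 0.50. Of the 24 differences followed in the regions named here, 4 kept their call without Th17 replicate 3 and 9 without Th17 replicate 1, against 13 without Th9 replicate 1, 15 without Th9 replicate 3, 17 without Th2 replicate 3 and 22 without Th2 replicate 1. No direction turned. On the logit of the fold percentile, in place of the normalized fold, 5 of the 24 were kept, and 9 were kept when regions with missing peaks entered the fit at the lowest fold of the list. The regions whose calls held without any single library were Gabpa +29.9 kb between Th9 and Th2, and Gabpa -44.0 kb and Etv6 +189.9 kb between Th2 and Th17. The first of these was lost on the logit and with missing peaks in the fit, and the others were kept in both.

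At Gabpa (chr16:84834925-84863779, plus strand) both distal regions were highest in Th2. Gabpa +29.9 kb lies beyond the 3′ end of the gene in intergenic DNA. Its fold percentiles were 69.2 and 40.1 for Th9, 94.6 and 89.5 for Th2, and 82.0 and 81.9 for Th17, and the 3 subsets did not overlap. The difference was -1.33 ± 0.20 for Th9 minus Th2 (adjusted p = 0.00385, 0.00164 to 0.0336 with 1 library left out, 0.0761 on the logit of the percentile and 0.0842 with missing peaks at the lowest fold) and -0.70 ± 0.20 for Th9 minus Th17 (adjusted p = 0.0483). The latter call was lost without any of the 4 Th9 and Th17 libraries, at adjusted p of 0.0829 without Th9 replicate 1, 0.177 without Th9 replicate 3, 0.158 without Th17 replicate 1 and 0.309 without Th17 replicate 3. The sequence printed above for it holds 1 match to TGANTCA, the site of AP-1 factors.

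Gabpa -44.0 kb lies in the body of Jam2, which encodes a junctional adhesion protein, so its position alone does not assign it to Gabpa. The fold percentiles were 76.4 and 81.7 for Th9, 92.6 and 96.8 for Th2, and 63.7 and 32.0 for Th17. Th2 exceeded Th17 by 1.68 ± 0.24 (adjusted p = 0.000381, and 1.81e-05 to 0.0174 with 1 library left out), the largest called difference in the windows. Th9 minus Th2 was -1.05 ± 0.24 (adjusted p = 0.0256). That call was lost without Th9 replicate 1 (0.136), Th2 replicate 3 (0.162), Th17 replicate 1 (0.0554) or Th17 replicate 3 (0.0506). The central 200 bases hold 2 matches to TGANTCA, and 55.0% of them are masked as repetitive. A further Gabpa region, +60.1 kb in intergenic DNA, was called in both Th2 libraries alone, at 58.7 and 65.5.

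Etv6 (chr6:134035700-134270158, plus strand), an ETS repressor, contributed the largest number of differing regions. A cluster in the last part of the gene was most open in Th2. At Etv6 +189.9 kb the fold percentiles were 90.4 and 82.5 for Th9, 96.7 and 96.4 for Th2, and 84.1 and 69.0 for Th17. The Th2 libraries lay above all others, and Th2 minus Th17 was 1.32 ± 0.19 (adjusted p = 0.000421, and 0.000603 to 0.0219 with 1 library left out). Th9 minus Th2 was -0.89 ± 0.19 (adjusted p = 0.0189), a call lost without Th9 replicate 1 (0.0506), Th9 replicate 3 (0.125) or Th2 replicate 3 (0.0578).

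Next to it, Etv6 +185.0 kb had fold percentiles of 96.0 and 91.1 for Th9, 96.3 and 96.1 for Th2, and 88.6 and 77.9 for Th17. Here both Th2 libraries ranked above both Th9 libraries, though Th9 replicate 1 lay close to them. Th17 was lower, by 0.74 ± 0.19 against Th9 (adjusted p = 0.0282) and 0.99 ± 0.19 against Th2 (adjusted p = 0.00372). Between and beside these lay 2 regions that both Th2 libraries alone called. Etv6 +182.6 kb was called at 82.0 and 76.4, with peaks of 961 and 1060 bp, and Etv6 +186.9 kb, over an exon, at 65.1 and 77.3.

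Past the end of the gene, Etv6 +246.0 kb was lowest in Th17, at 95.1 and 86.4, against 98.8 and 96.9 in Th9 and 98.8 in both Th2 libraries. Th17 was lower by 0.80 ± 0.20 than Th9 (adjusted p = 0.0242) and by 0.94 ± 0.20 than Th2 (adjusted p = 0.00704). Without Th17 replicate 3 the calls at Etv6 +246.0 kb (0.362 and 0.184) and Etv6 +185.0 kb (0.338 and 0.106) were lost. Without Th9 replicate 1 the calls against Th9 were lost as well (0.142 and 0.174), and for Etv6 +185.0 kb also without Th17 replicate 1 (0.0661). The other 5 called regions of Etv6 included 3 intronic ones lower in Th9 than in Th2 or Th17 (+45.9, +148.5 and +169.9 kb), named after their values were seen. Etv6 +148.5 kb had 44.3 and 28.9 for Th9, 73.1 and 58.1 for Th2, and 85.7 and 74.9 for Th17. These 3 regions were not among the differences followed above, and none of their calls against Th9 was kept on the logit of the percentile. Their Th9 folds, 2.08 to 2.44, were near the lowest listed, 2.11 in Th9 replicate 1 and 1.83 in Th9 replicate 3.

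Etv6 also had regions restricted to each subset. Both Th17 libraries alone called Etv6 +210.5 kb, at 60.8 and 55.9, and Etv6 +256.4 kb, at 73.9 and 55.5. Both Th9 libraries alone called Etv6 +25.7 kb, at 11.4 and 6.28, and Etv6 +226.5 kb, at 26.2 and 40.8, both in the weaker part of the lists. Th2 alone called Etv6 +53.9 kb, at 7.70 and 5.03. Th2 and Th17 without Th9 called Etv6 +50.6 kb, at 63.4 and 61.1 in Th2 and 84.3 and 65.1 in Th17, and Etv6 +211.8 kb. Th9 and Th2 without Th17 called Etv6 +161.7 kb.

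**Figure D4:**
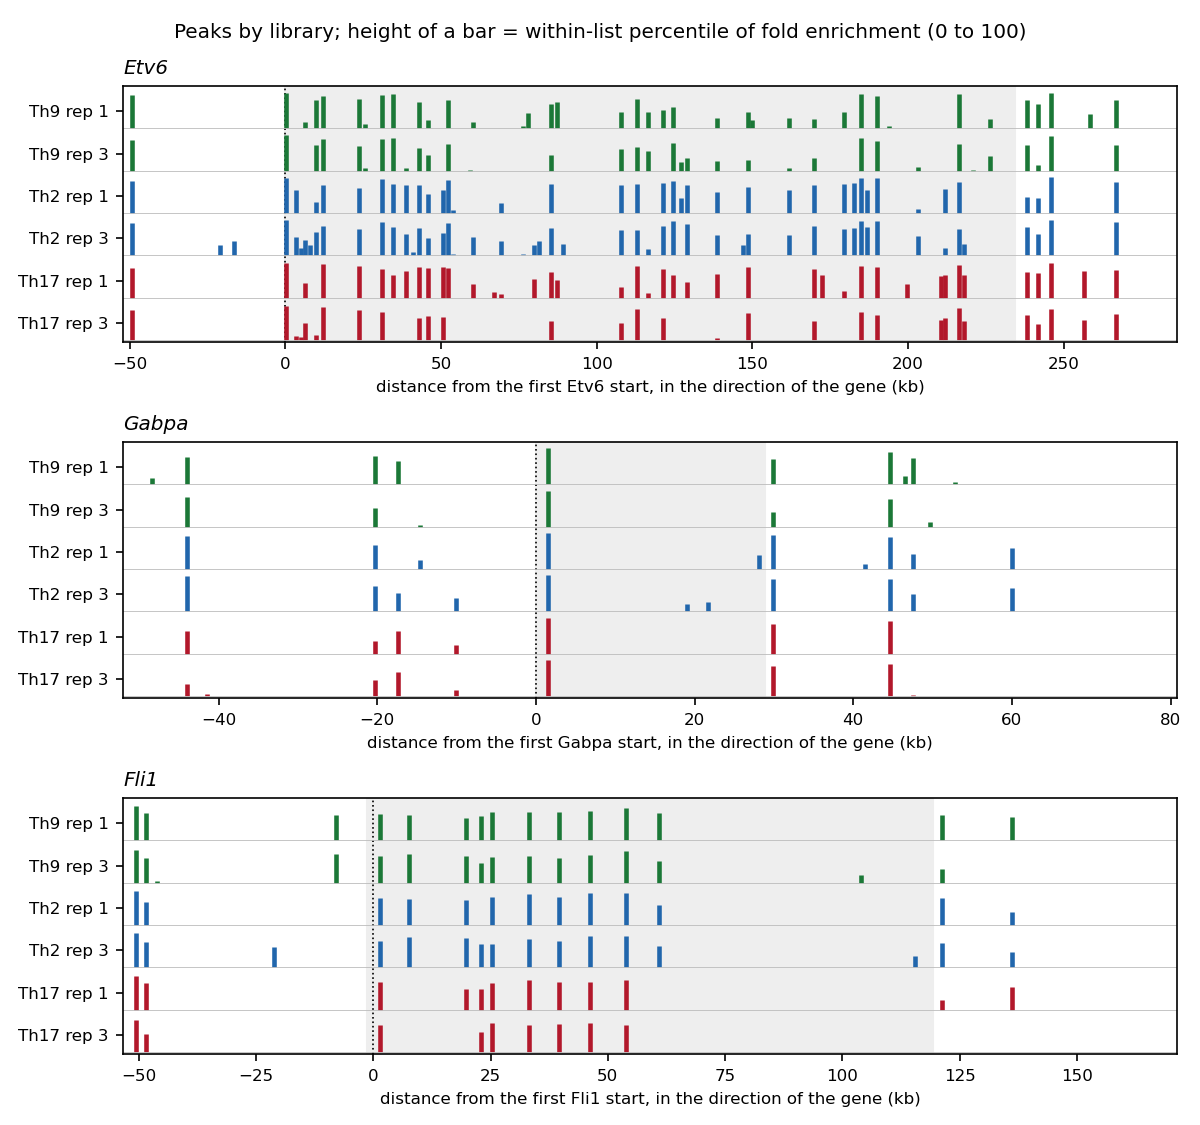
Peaks of each library around Etv6, Gabpa and Fli1, by distance from the first protein-coding start (kb, horizontal axis, gene direction to the right), the gene shaded and the start dotted, bar height the fold percentile. Around +182.6 to +189.9 kb of Etv6 the Th2 libraries have the most bars, and at Fli1 -7.9 kb only the Th9 libraries have one.

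At Ets1 (chr9:32636221-32757820, plus strand), a regulator of T cell survival and cytokine genes, differing regions lay far from the start and went both ways. Ets1 +39.2 kb, over a coding exon, had fold percentiles of 90.6 and 87.0 for Th9, 90.2 and 89.3 for Th2, and 74.1 and 65.6 for Th17. Th17 was lower by 0.80 ± 0.18 than Th9 (adjusted p = 0.0139) and by 0.81 ± 0.18 than Th2 (adjusted p = 0.00987). Intergenic Ets1 +83.2 kb was at 87.5 and 88.2 for Th9, 80.8 and 75.9 for Th2, and 73.0 and 51.3 for Th17, and Th9 exceeded Th17 by 0.87 ± 0.20 (adjusted p = 0.0163). These calls were lost without Th17 replicate 1 or Th17 replicate 3, at adjusted p of 0.0668 to 0.224. At Ets1 +39.2 kb they were lost without Th9 replicate 1 (0.0602) or Th9 replicate 3 (0.0552) against Th9 and without Th2 replicate 3 (0.0623) against Th2, and at Ets1 +83.2 kb without Th9 replicate 3 (0.108).

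Toward Fli1, the order was the opposite. Ets1 -101.8 kb (chr9:32593737-32594756), in the gene-free interval between Fli1 and Ets1, had fold percentiles of 90.5 and 91.3 in Th17 against 80.7 and 55.9 in Th9 and 80.0 and 74.5 in Th2. Th9 minus Th17 was -0.99 ± 0.20 (adjusted p = 0.00689) and Th2 minus Th17 was -0.84 ± 0.20 (adjusted p = 0.0146). Without Th17 replicate 3 they had adjusted p of 0.118 and 0.201, without Th9 replicate 3 the first had 0.0643, and the second was also lost without Th17 replicate 1 (0.0589) or Th2 replicate 3 (0.0512). The Th17 libraries alone called both regions between it and the annotated Ets1 gene, Ets1 -83.3 kb at 49.7 and 42.4 and Ets1 -79.9 kb at 71.9 and 63.2. The Ets1 start was at 89.5 to 97.0 in all libraries.

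Fli1 (chr9:32422204-32542861, minus strand), an ETS activator of blood cells, had no differing region among the 8 tested, and its subset patterns came from missing peaks. Fli1 -7.9 kb (chr9:32549216-32549839), upstream of the start, was called in both Th9 libraries alone, at 69.7 and 80.3 and with widths of 500 and 624 bp. It was the strongest of the 3 regions restricted to Th9. Fli1 +7.5 kb, an intronic region, was called at 70.9 and 80.0 for Th9 and 72.0 and 85.3 for Th2, and Fli1 +60.9 kb at 76.9 and 61.5 for Th9 and 55.1 and 58.9 for Th2, with no Th17 peak at either. The strongest region of the Fli1 window by mean percentile, Fli1 -50.5 kb, was intergenic and lay between 89.2 and 94.9 in all libraries. It also lay in the window of Ets1.

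Ets2 (chr16:95702075-95721051, plus strand) had 2 differing regions, both downstream of the gene in intergenic DNA. Ets2 +40.1 kb was at 83.6 and 70.0 for Th9, 82.5 and 78.0 for Th2, and 41.6 and 38.0 for Th17, and its Th17 peaks of 205 and 389 bp were narrower than the others, at 622 to 952 bp. Th17 was lower by 0.69 ± 0.18 than Th9 (adjusted p = 0.0303) and by 0.74 ± 0.18 than Th2 (adjusted p = 0.0165), and both calls were lost without Th17 replicate 1 (0.216 and 0.152) or Th17 replicate 3 (0.209 and 0.158). The first was lost without Th9 replicate 1 too (0.129), and the second without Th2 replicate 1 (0.0673) or Th2 replicate 3 (0.0639). Ets2 +47.9 kb was at 98.4 and 97.8 in Th2 against 91.4 and 88.3 in Th17, with Th9 at 96.0 and 89.9. Th2 exceeded Th17 by 0.91 ± 0.18 (adjusted p = 0.00457), a call lost without Th17 replicate 3 (0.0751). The Ets2 start was at 94.9 to 97.8.

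Elf1 (chr14:79481194-79582494, plus strand), an activator of T cell and other blood cell genes, had the region with the lowest Th9 rank of the 81 that all libraries called. Elf1 +81.8 kb, in an intron, was at 10.8 and 8.25 for Th9, 74.5 and 67.6 for Th2, and 75.6 and 64.0 for Th17. The Th9 libraries lay far below the other 4, which overlapped, and the mean fold percentile was 9.55 ± 1.84 in Th9, 71.1 ± 4.88 in Th2 and 69.8 ± 8.21 in Th17 (SD, n = 2 each). Both Th9 peaks were in the weakest part of their lists, near the lowest folds listed, 2.11 in Th9 replicate 1 and 1.83 in Th9 replicate 3. On the log2 scale the difference was -0.63 ± 0.15 for Th9 minus Th2 (adjusted p = 0.0308) and -0.66 ± 0.15 for Th9 minus Th17 (adjusted p = 0.0143). The first call was lost on leaving out any of the 6 libraries, at adjusted p between 0.0503 and 0.134, and the second on leaving out any of the 4 Th9 and Th17 libraries, at 0.0616 to 0.123.

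Elf1 +18.6 kb, also intronic, was at 76.1 and 72.1 for Th9, 70.1 and 79.9 for Th2, and 36.6 and 7.64 for Th17. Th17 was lower by 0.69 ± 0.18 than either other subset, with adjusted p of 0.0352 against Th9 and 0.0292 against Th2. Both calls were lost without Th17 replicate 1 (0.175 and 0.146) or Th17 replicate 3 (0.323 and 0.311), and the call against Th2 without Th2 replicate 3 (0.259). The call against Th9 was lost without Th9 replicate 1 (0.0710) or Th9 replicate 3 (0.130) as well. Upstream, Elf1 -37.8 kb was called at 80.1 and 71.2 for Th9 and at 71.6 and 69.6 for Th2 but not in Th17. In the body of Sugt1, Elf1 +110.2 kb was called in Th17 alone, at 50.9 and 74.3.

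The limma fit with missing peaks at the lowest fold covered the 158 regions of the windows that at least 2 libraries called, among 148283 regions in all. Between Th9 and Th2 it called 0 of the 158 and 0.00% of the genome, with 36 of the 158 and 23589 of all regions at an unadjusted p below 0.05, whereas 5 regions had passed in the fit of regions that all libraries called. Between Th9 and Th17 it called 7 (4.43%, genome 2.70%), and between Th2 and Th17 it called 17 (10.8%, genome 4.67%). A fold set to the floor is no measurement, and a region that lacked peaks entered through the libraries that had one, so no difference of a single such region is read from this fit.

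**Figure D5:**
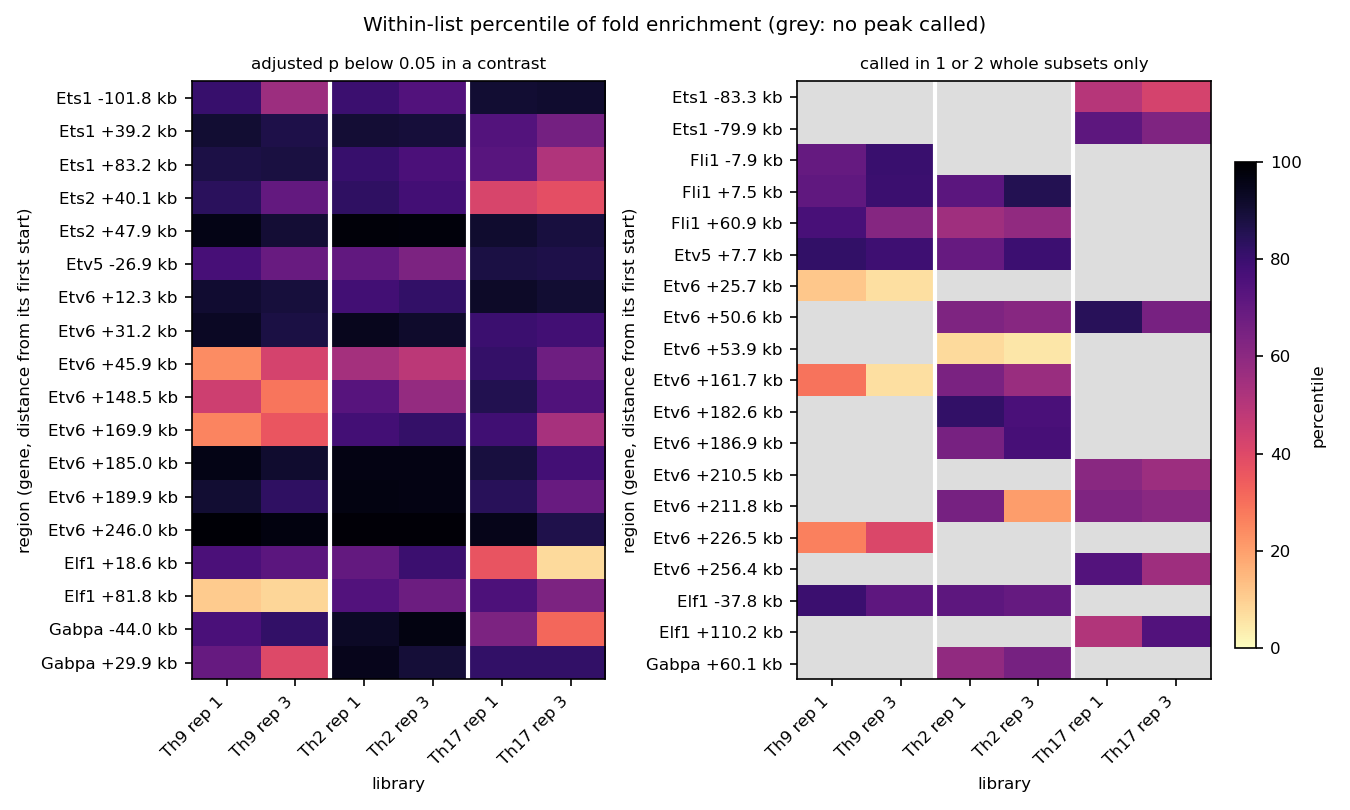
Fold percentile (color, 0 to 100) in each library of the 18 regions that passed a test in some contrast (left) and of the 19 regions called in both libraries of 1 or 2 subsets and no other (right). Grey marks a library with no peak, and Elf1 +81.8 kb stands out by its values of 10.8 and 8.25 in Th9.

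Across the regions called in 1 or 2 whole subsets, the share with Th9 and Th2 together (5 regions) and the absence of any region of Th9 and Th17 together (0 regions) had the order of the genome, where these patterns held 2.0% and 0.296%. Of the tests, 13 and 12 regions passed in the contrasts with Th17 and 5 between Th9 and Th2, and in the genome too the contrast of Th9 and Th2 had the smallest share.

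Matches to short words, on either strand, were counted in the central 200 bases of each region. CCGGAAGT, the site of most ETS members, was found in 2 of the 212 regions (0.943%), against 0.423% of all regions of that length. GAGGAAGT, the PU.1 and Spi-B site, was found in 7 (3.30%, all regions 1.92%), among them Spi1 -15.1 kb and Spi1 +40.5 kb, named for this match after it was seen. Spi1 -15.1 kb was called by Th2 replicate 3 alone. Spi1 +40.5 kb, in the body of Mybpc3, was called by Th9 replicate 3 and Th17 replicate 1, at fold percentiles of 15.9 and 0.983. The AP-1 word TGANTCA was found in 28 (13.2%, all regions 9.09%), and TTCNNNGAA, the site of STAT factors, in 25 (11.8%, all regions 5.51%). A palindromic match was counted once, and CCGGAAGT and GAGGAAGT, which share the letters GGAAGT, cannot match at the same place on a strand. Among regions called in all 6 libraries the shares were 1.23%, 1.23%, 13.6% and 9.88% in the windows and 1.30%, 2.14%, 9.48% and 5.37% over all. The regions of a window are few and share a locus, and no test was made. Of the 9 sequences printed above, 3 held an AP-1 word and none held either ETS word.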

How the data were processed

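ATAC-seq libraries of wild-type mouse Th9, Th2 and Th17 cells (n = 2 each) were used, grouped by their labels. Per the labels and the methods, the authors trimmed reads with Trim Galore 0.4.3, aligned them to mm10 with bowtie2, removed duplicates with Picard and reads of low mapping quality, and called peaks with MACS2 2.1.0 in paired-fragment, broad mode without a local background, for each library and without input. The deposited lists give each peak's fold enrichment, a linear ratio, with the −log10 p-value and −log10 q-value. The deposited display score was not used. No shift for the Tn5 cut offset was stated. Mitochondrial reads were stated to be excluded, yet the lists hold mitochondrial peaks, and these were outside the windows. Reads in repeats can change folds where mapping is uncertain.

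Peaks were joined into regions and counted as called at an overlap of at least 1 bp. Genes came from GENCODE M21 (basic set), whose assembly, GRCm38, is that of mm10, and 0 peaks lay past a chromosome end. Depth is not in the lists, and background coverage was recovered from the fold and p-value of flat peaks. Fold was tested with limma 3.58.1 (trended variance, 3 residual degrees of freedom, R 4.3.3) after quantile normalization, at an adjusted p of 0.05. Tables used Python 3.11.15 and pandas 2.3.3, and sequence pysam 0.24.0. Soft-masked bases of the assembly were counted as repetitive, a measure added after the peaks had been seen. The fit was tested on simulated data.

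Regions were named if they lay over a member's start, were called in both libraries of 1 or 2 subsets and no other, had the highest mean percentile of their gene, or were among the 3 largest called differences of a gene. Sequences were taken from such regions. Those outside this rule are said to be. A marker promoter and a sequence are not reported here. The members and lists were chosen with earlier results of these data known. Alternatives were median centring, the logit of the percentile, a width-weighted mean fold, missing peaks set to the lowest fold, a mean percentile of at least 50, a replicate block, each library left out, filters at a −log10 q of 5 or a fold of 4, equally long lists, 50% coverage of a region, 10 kb flanks and promoters of 2000 bp on either side.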

Additional observations from a re-analysis of the deposited data

How the results depend on the processing

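The counts of regions passing the test in the windows, 5 between Th9 and Th2, 13 between Th9 and Th17 and 12 between Th2 and Th17, stayed within 1.5 times under median centring, the width-weighted mean fold and the filter on mean percentile. On the logit of the percentile they were 0, 1 and 4, and with missing peaks at the lowest fold 0, 7 and 17, the last within 1.5 times. With 1 library left out they ranged from 1 to 5, from 2 to 13 and from 3 to 13. No named difference changed direction under any of these settings. Whether same-numbered libraries shared a mouse or batch is not stated, and a correlation of their deviations cannot decide it. The correlation of same-numbered deviations was 0.207 between Th9 and Th2, 0.0098 between Th9 and Th17 and 0.00096 between Th2 and Th17. A fit with the replicate block called 6, 15 and 13 regions and kept all 24 named calls.

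Call patterns moved more. The regions called in all 6 libraries, 81 as reported, were 48 with a −log10 q of at least 5, 19 with a fold of at least 4, 34 with 50% of a region covered and 53 with 10 kb flanks. Regions of Th9 alone (3) were 1 with the q filter and with lists of equal length. Those of Th2 alone (4) were 7 with the q filter, 7 with the fold filter and 12 with 50% covered. Those of Th17 alone (5) were 3, 3 and, with 10 kb flanks, 2. Regions of Th9 and Th2 (5) were 8 with 50% covered, those of Th2 and Th17 (2) were 7 with the q filter, 0 with the fold filter and 4 with 50% covered, and those of Th9 and Th17 (0) were 1 with 50% covered. With 1 library left out, so that 1 library of that subset sufficed, the ranges were 83 to 92 for all libraries, 3 to 19 for Th9, 5 to 24 for Th2, 5 to 9 for Th17, 5 to 16 for Th9 and Th2, 2 to 5 for Th2 and Th17 and 0 to 1 for Th9 and Th17. The cause of these shifts was not tested, beyond the fewer peaks left by a stricter filter. Th9 replicate 1 had the lowest background, the highest lowest-listed fold, 2.11, and the longest list, 142213 peaks. The part of depth in these shifts was not tested.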
